A study of Mus musculus with 235 samples.

Results

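The punches labelled dCA1 and vCA1 of vehicle-treated mice were compared across genes. The members were the 15 dCA1 and 14 vCA1 vehicle libraries, 29 of the 235 libraries of a series that sampled 8 brain regions. All came from C57Bl/6 male mice, 3 months old, which received saline by intraperitoneal injection 4 h before tissue was taken. Brains were perfused and frozen, and regions were punched from coronal sections. In 14 animals both punches gave a library, and the test used those 28 libraries with the animal as a block. Libraries of mice given dexamethasone at 10 mg per kg, and of the punches labelled dDG and vDG, served as references where stated. Dexamethasone is a synthetic glucocorticoid, and those animals matched the vehicle animals in strain, sex, age and time.

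CA1 is the output field of the hippocampus proper, and its pyramidal cells receive input from CA3 and project to the subiculum. Its dorsal end is classically linked to spatial memory and its ventral end to emotion and stress, and gene expression is known to differ between them. The dentate gyrus lies beside CA1 across the hippocampal fissure, and its granule cells carry a distinct set of transcripts that includes the homeobox gene Prox1. A punch is a cylinder of tissue. Neighbouring fields can therefore fall inside it, and in such bulk tissue fewer cells of a type and less RNA per cell cannot be told apart.

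The vehicle libraries held 297943 to 1451422 counts in dCA1 (median 704675) and 565831 to 1103090 in vCA1 (median 747539). RNA integrity (RIN) was 6.28 ± 1.18 (SD, n = 15) in dCA1 and 6.69 ± 1.18 (SD, n = 14) in vCA1, and it was lower in dCA1 in 8 of 14 animals. Both punches of an animal were taken on 1 date, but only 3 animals had both on 1 plate. Among the genes past the threshold, the direction was the same within the 3 punching dates that held at least 3 animals for 95.7%, 99.0% and 99.6% of them.

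The vCA1 library of replicate 15 stood apart from the other vCA1 libraries. It held 427 CPM of Cbln3, 122 CPM of Pcp2 and 1161 CPM of Zic1, genes known for their expression in cerebellum and chosen here after their values were seen. The other vCA1 libraries reached at most 2.24, 1.12 and 51.0 CPM of these genes. Without this animal 1855 genes passed, among them 1653 of the 1812 calls that could still be tested, and changes among marker genes are given where they occur. Among other listed or named genes, Chrm3 (lower), Sema4f, Epha3 and Pcp4 (all higher) then passed. Kcna4, Gabra5 and Ncald no longer did, and Nxph3, Tmem91 and A330008L17Rik were not tested. The part of this tissue in the other differences was not tested.

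The label dCA1 was checked against markers first, and the dentate markers went against it. For each library a dentate level was taken as the mean log2(CPM + 1) of 6 dentate granule genes (Dsp, Stxbp6, Lct, Tdo2, Plk5 and Npnt), where CPM is a count scaled to a library total of 1000000. The level ran from 4.59 through a median of 6.32 to 6.81 in dCA1 and from 1.93 through a median of 3.55 to 4.34 in vCA1, so the groups did not overlap. Within animals dCA1 exceeded vCA1 by 2.99 ± 0.78 (SD, n = 14), with a range of 1.45 to 4.36. In the punches labelled dDG the level was 5.88 ± 1.03 (SD, n = 15) and in vDG 4.15 ± 0.96 (SD, n = 15), so the dCA1 mean lay above that of either dentate punch. All 6 genes were also higher in dDG than in vDG of dexamethasone animals, by 0.86 (Tdo2) to 3.12 (Lct) on the log2 scale. Dorsal position and dentate content therefore cannot be told apart in this level. With 10 further dentate granule genes in its place the gap between dCA1 and vCA1 was 1.94. The corresponding mean of 9 CA1 pyramidal genes was 5.46 ± 0.69 (SD, n = 15) in dCA1 and 6.26 ± 0.41 (SD, n = 14) in vCA1, and 5.52 ± 0.91 (SD, n = 15) in dDG. None of the 14 dentate granule genes tested differed between dCA1 and dDG within vehicle animals past an adjusted p of 0.05 (edgeR, animal block), in a comparison where 120 of 8573 genes did (1.4%). Whether the dCA1 punches took in dentate tissue or the labels dCA1 and dDG were exchanged was not tested. For this reason the groups are called punches labelled dCA1 and vCA1, and no difference below is taken as one of CA1 cells.

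**Figure D1:**
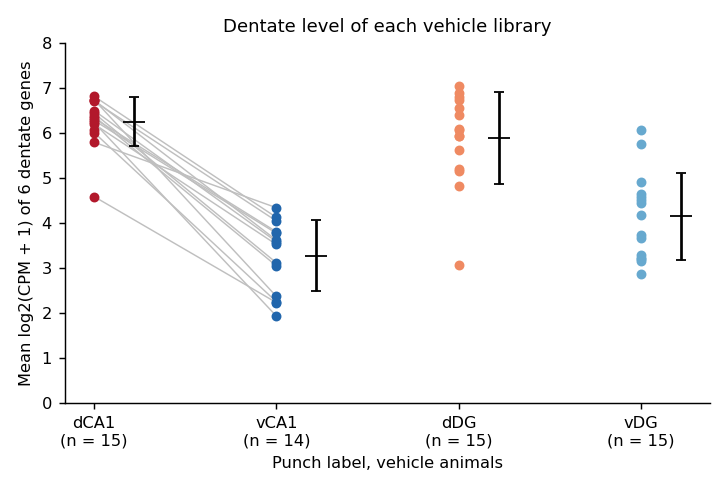
Mean log2(CPM + 1) of 6 dentate granule genes in each vehicle library, by punch label. Grey lines join the dCA1 and vCA1 libraries of 1 animal, and black marks give the mean and SD. All 15 dCA1 libraries lie above all 14 vCA1 libraries, and the lowest dCA1 library, at 4.59, stands apart from the other 14.

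Of 8712 genes tested, 1841 (21.1%) differed between dCA1 and vCA1 at an adjusted p under 0.05 (edgeR quasi-likelihood test, Benjamini-Hochberg over all genes tested). In dCA1, 973 genes (11.2%) were higher and 868 (9.96%) lower. Most differences were moderate, with a median absolute log2 fold change of 0.53, and 167 genes (1.92%) were at least 2-fold higher and 126 (1.45%) at least 2-fold lower. The median log2 fold change over all genes was 0.01. The sign was the same in all 14 animals for 368 genes (4.22%), of which 186 were higher (2.13%) and 182 lower (2.09%), and all of them passed. The 2 groups of libraries did not overlap at all for 68 genes (0.781%), 48 of them higher in dCA1 (0.551%). The count was 1183 at an adjusted p under 0.01, 1222 of 4583 genes with at least 10 counts in every library, and 1093 of 5940 genes with every library thinned to 297943 counts. Leaving out 1 animal gave 1483 (without animal replicate 9) to 2036 genes (without animal replicate 4). The dCA1 library of replicate 4 had the lowest dentate level, the lowest total count and the lowest RIN of its group.

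Of the 12 genes with the largest excess in dCA1 and the same sign in every animal, 6 belong to the dentate granule lists. Dsp, which encodes the desmosomal protein desmoplakin (chr13:38151328-38198577, plus strand), measured 64.3 to 168 CPM in dCA1 (median 113) and 0 to 20.6 CPM in vCA1 (median 7.11). The groups did not overlap, and the log2 fold change was 3.99 ± 0.23 (SE, adjusted p 4.7e-13, edgeR). Prox1, the transcription factor that maintains granule cell identity (chr1:190118035-190170714, minus strand), measured 261 to 687 CPM (median 521) against 43.8 to 160 CPM (median 102). Every dCA1 library exceeded every vCA1 library, by 2.38 ± 0.15 on the log2 scale (SE, adjusted p 2.5e-12, edgeR). C1ql2, a secreted C1q-like protein of mossy fibre synapses, measured 104 to 293 CPM (median 184) against 4.41 to 41.2 CPM (median 20.7), again without overlap. Pdyn, the precursor of dynorphins, measured 12.0 to 49.6 CPM (median 29.4) against 0 to 13.4 CPM (median 5.33). Its ranges touched, but it was higher in dCA1 in 14 of 14 animals, by 2.53 ± 0.23 (log2, SE).

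Among the other genes with the largest excess and the same sign in every animal were Lct (lactase, log2 fold change 3.39), Npnt (the integrin ligand nephronectin, 2.84), Plekha2 (2.61), Smoc2 (a secreted calcium-binding matrix protein, 2.55), Fam84b (2.32), Sema5a (a semaphorin, 2.28) and Fam163b (2.08). In the dDG punches of the same arm their medians were of the same order as in dCA1. Plekha2 measured a median of 133 CPM in dCA1, 138 in dDG, 34.4 in vDG and 22.4 in vCA1. Sema5a measured 296, 239, 102 and 53.7 CPM in that order. Over the 2 dentate granule lists, 14 of 14 tested genes were higher in dCA1, beside 11.2% of all genes, with log2 fold changes from 0.97 (Il16, adjusted p 0.052 without replicate 8) to 3.99 (Dsp). Without replicate 15 the dentate gene Tdo2 and Pdyn did not reach the filter on low counts and were not tested. Other dentate cell types did not share this pattern throughout. Of 4 genes tested for immature granule cells and neurogenesis, Neurod1 and Sox11 (0.60) were higher, while Sox4 (0.28) and Dcx (-0.21) did not pass. Of 2 hilar mossy cell genes tested, Ociad2 was lower (-0.78), beside 9.96% of all genes, and Calb2 (-0.63) did not pass. The lists were written with earlier results of these data known, so their direction is a description.

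Grp, Ccn3, Rxfp1 and Gabra3 were among the 12 genes with the largest deficit in dCA1 and the same sign in every animal. Grp, the precursor of gastrin-releasing peptide, measured 0 to 15.1 CPM in dCA1 (median 4.40) and 17.0 to 105 CPM in vCA1 (median 44.7). No dCA1 library reached the lowest vCA1 library, and the log2 fold change was -3.17 ± 0.29 (SE, adjusted p 2.0e-09, edgeR). Ccn3, a secreted matricellular protein (chr15:54745702-54754039, plus strand), measured 2.94 to 62.9 CPM (median 16.8) against 60.5 to 291 CPM (median 194). The ranges overlapped only at their ends, and Ccn3 was lower in dCA1 in 14 of 14 animals (log2 fold change -3.16 ± 0.27, SE). Rxfp1, the relaxin receptor (chr3:79641611-79737880, minus strand), measured 0 to 16.1 CPM (median 4.41) against 17.0 to 144 CPM (median 51.9). Its groups did not overlap (log2 fold change -3.15 ± 0.24, SE). Gabra3, the alpha3 subunit of the GABA-A receptor (chrX:72432681-72656848, minus strand), measured 18.3 to 60.6 CPM (median 34.4) against 78.0 to 219 CPM (median 160). It too separated the groups in every library (log2 fold change -2.22 ± 0.13, SE, adjusted p 5.6e-13, edgeR).

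The remaining genes with the largest deficit and the same sign in every animal were Nxph3 (a neurexophilin, log2 fold change -3.04), Tmem91 (-2.97), Ccn2 (a matricellular protein, -2.92), Nts (the neurotensin precursor, -2.82), Ldb2 (a LIM-domain binding cofactor, -2.41), Ndst3 (a heparan sulfate-modifying enzyme, -2.31), Hrh3 (the histamine H3 receptor, -2.27) and Kcnt1 (a sodium-activated potassium channel, -2.21). Their dDG medians lay below their vCA1 medians. Rxfp1 stood at 3.39 CPM in dDG and 49.9 CPM in vDG, and Grp at 3.83 and 30.9 CPM. Gap43, a growth cone protein, and Nr4a2, an orphan nuclear receptor, are named because their groups did not overlap, a choice made after their values were seen. Gap43 measured 82.2 to 246 CPM in dCA1 (median 134) against 340 to 703 CPM in vCA1 (median 458), and Nr4a2 measured 38.1 to 128 CPM (median 62.0) against 160 to 574 CPM (median 274).

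**Figure D2:**
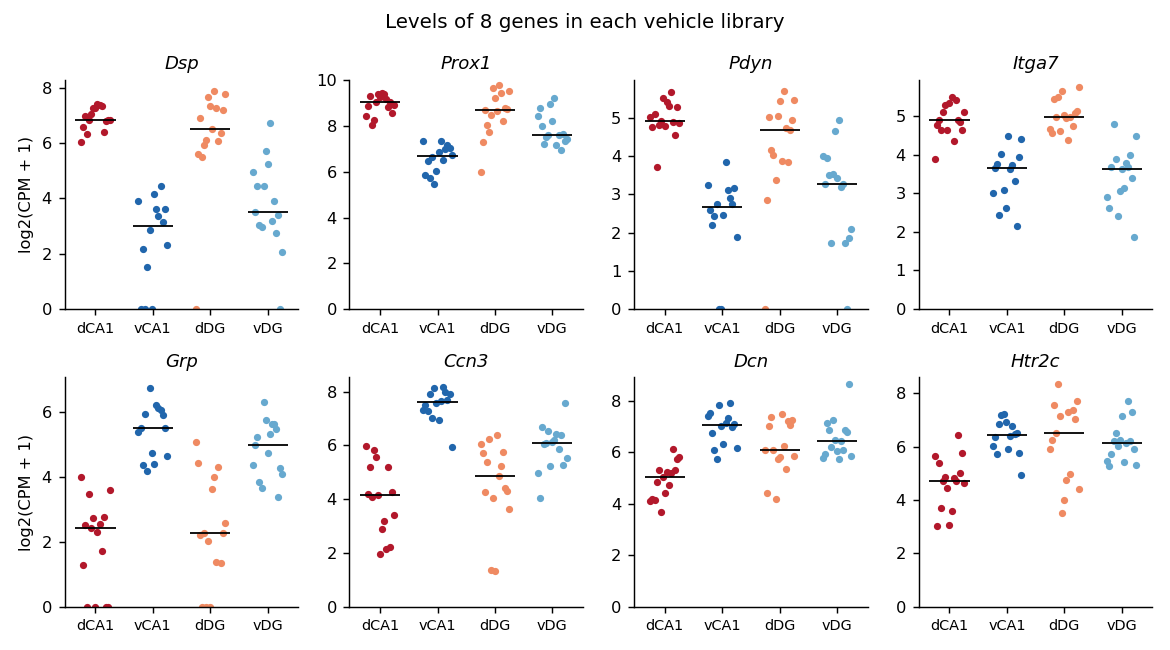
Levels of 8 genes in each vehicle library on a log2(CPM + 1) scale, by punch label, with black lines at the medians (dCA1, dDG and vDG n = 15, vCA1 n = 14). Dsp, Prox1, Pdyn and Itga7 are high in dCA1 and dDG, Grp is low in both, and the median of Htr2c in dDG, 89.9 CPM, is near that of vCA1, 85.9 CPM. The choroid plexus transcript Ttr had a median of 1213 CPM in the same dDG libraries, against 126 CPM in dCA1 and 37.3 CPM in vCA1.

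Markers of CA1 itself were lower or did not pass the test. Of 8 CA1 pyramidal genes tested, 3 were lower in dCA1 and 5 did not pass, with a median log2 fold change of -0.48. Over all genes 9.96% were lower and 11.2% higher, with a median of 0.01. Without replicate 15 Neurod6 was lower as well (-0.41, adjusted p 0.0051, edgeR). Mpped1 measured 20.8 to 437 CPM in dCA1 (median 82.7) against 208 to 438 CPM in vCA1 (median 266), and the ranges overlapped (log2 fold change -1.30 ± 0.25, SE, adjusted p 2.6e-04, edgeR). Man1a (-1.34) and Spink8 (-1.02) were the others. Fibcd1 gave -0.22 ± 0.32 (SE) and Wfs1, the wolframin gene, -0.05 ± 0.18 (SE), neither past the threshold.

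A list of genes known to mark dorsal CA1 had no member that was higher in dCA1. Of 4 tested, Ccn3 and Kcnh7 (a voltage-gated potassium channel, log2 fold change -0.95) were lower, and Wfs1 and Ndst4 (-0.43 ± 0.20, SE) did not pass. For the ventral CA1 list, 5 of 5 tested genes were lower in dCA1, with a median of -1.65, again beside 9.96% of all genes. They were Grp, Dcn (the proteoglycan decorin), Htr2c (the serotonin 2C receptor), Etv1 and Nr2f2 (both transcription factors). Dcn (chr10:97479500-97518162, plus strand) measured 11.7 to 68.8 CPM in dCA1 (median 32.2) against 53.0 to 242 CPM in vCA1 (median 133). The ranges overlapped slightly, and all 14 animals were lower in dCA1 (log2 fold change -2.04 ± 0.21, SE, adjusted p 2.0e-08, edgeR). Htr2c measured 7.25 to 84.9 CPM (median 25.4) against 29.6 to 150 CPM (median 85.9), lower in 14 of 14 animals (log2 fold change -1.65 ± 0.23, SE).

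Markers of neighbouring fields and of interneurons were counted next, and their counts stand beside 11.2% of all genes higher and 9.96% lower. In the subiculum list 3 of 3 tested genes were lower in dCA1 (Nts, Slc17a6 at -1.12 and Fn1 at -0.98). The neocortex list had 3 of 5 lower (Fezf2 at -1.58, Cux2 at -0.91 and Tbr1 at -0.67). Of 5 CA3 genes tested, Bok (1.30) and Cpne4 (1.04) were higher and Elavl2 (-0.52) lower. Of 2 CA2 genes tested, Amigo2 (0.61, adjusted p 0.047, edgeR) was higher. None of 3 thalamus genes tested passed (Prkcd at 0.43, Zic1 at 0.40 and Tcf7l2 at -0.08). The summed thalamus list reached 1267.5 CPM in the vCA1 library of replicate 15 and at most 159 CPM in the others. Zic1, named above for cerebellum, gave 1161 CPM of that sum, so the sum is not a level of thalamus. Without that animal Zic1 was higher in dCA1 (0.87 ± 0.15, SE, adjusted p 9.5e-05, edgeR). Amigo2 was then not tested. In the amygdala list Rspo2 (-2.16) was lower and Cyp26b1 (1.09) higher. Among interneuron genes 5 of 9 tested were lower in dCA1 and none higher. These were Vip (-1.77), Sst (-1.30), Pvalb (-1.26), Cnr1 (-0.81) and Slc32a1 (-0.48, adjusted p 0.11 after thinning), which mark inhibitory subtypes or carry their transmitter. Gad1 (-0.11) and Gad2 (-0.31), which make that transmitter, did not pass, nor did Reln (-0.25) and Npy (0.07). The median over the 9 was -0.48, and the summed level of all 10 listed genes ran from 496 to 911 CPM in dCA1 and from 803 to 1220.5 CPM in vCA1. The part of these neighbouring fields in the other differences was not tested.

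Counts for glial, vascular and blood lists stand beside the 21.1% of all genes that passed. Of 7 astrocyte genes only Gfap passed (0.54, higher), and of 8 oligodendrocyte genes only Mbp (-0.45, lower). The Mbp call did not hold with RIN as a covariate (adjusted p 0.052, edgeR) or without replicate 9 (0.054). Without replicate 15 further oligodendrocyte genes passed as lower, among them Mobp (-0.50), Mog (-0.66) and Mag (-0.48), as did the blood gene Hbb-bs (-0.34). All 8 oligodendrocyte genes had negative values, and their summed level ran from 1759 to 6902.5 CPM in dCA1 (median 3228) and from 2723 to 7183 CPM in vCA1 (median 4854). No microglial (0 of 6), endothelial (0 of 6) or blood gene (0 of 3) passed at the adjusted threshold of edgeR. The 1 oligodendrocyte precursor gene tested, Pdgfra, gave -0.34 and did not pass. Of 3 choroid plexus genes tested Kl (0.94, adjusted p 0.057 without replicate 12) was higher.

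Receptors, peptides and ion channels changed in both directions. Of 11 neuromodulator and steroid receptors tested, 4 were higher in dCA1 and 2 lower, with a median log2 fold change of 0.16. Among all genes 11.2% were higher and 9.96% lower, with a median of 0.01, and these values also apply to the lists that follow. The higher ones were the neuropeptide Y receptors Npy2r (1.53 ± 0.22, SE) and Npy1r (1.30 ± 0.14, SE), the mineralocorticoid receptor Nr3c2 (0.69 ± 0.14, SE) and the muscarinic receptor Chrm1 (0.44 ± 0.12, SE). The Chrm1 call was lost after thinning (adjusted p 0.099, edgeR). Nr3c2 measured 42.7 to 88.1 CPM in dCA1 (median 72.2) against 20.2 to 68.4 CPM in vCA1 (median 48.3), and was higher in 13 of 14 animals. Nr3c1, the glucocorticoid receptor, measured 66.8 to 140 CPM (median 94.4) against 71.1 to 125 CPM (median 92.6). Its difference, 0.01 ± 0.09 (log2, SE), had no stable sign across the alternatives. Among 9 neuropeptide genes Pdyn and Penk (the enkephalin precursor, 0.94) were higher and Grp, Nts, Vip and Sst lower, with a median of -0.43.

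The 12 GABA receptor subunits tested split evenly, with 4 higher, 4 lower and 4 not passing (median 0.13). Gabra4 (0.74) and Gabra5 (0.32) were among the higher, and Gabra3 (-2.22), Gabrg3 (-1.04) and Gabrg1 (-0.64) among the lower. The Gabra5 call was lost in 8 alternatives beside the dentate covariate, with an adjusted p of up to 0.13 (edgeR). Of 18 glutamate receptor subunits, 5 were higher, led by the metabotropic receptor Grm2 (1.51), and 4 lower, led by the AMPA receptor subunit Gria4 (-0.93), with a median of 0.23. Of 29 potassium and HCN channel genes, 12 were higher, among them the channel-interacting protein Kcnip2 (1.12) and Kcnh1 (0.95), and 9 lower, led by Kcnt1 (-2.21), with a median of 0.13.

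Of 33 axon guidance genes tested, 11 were higher in dCA1 and 7 lower, with a median of 0.18. The ephrin receptors Epha7 (2.05 ± 0.12, SE) and Epha4 (1.18 ± 0.11, SE), Sema5a, Plxna4 (1.10), Slit1 (1.07) and Nrp2 (1.01) were higher, and the ephrin ligand Efnb2 (-1.69) and Plxnc1 (-0.98) lower. Epha7 measured 205 to 771 CPM in dCA1 (median 575) against 90.1 to 227 CPM in vCA1 (median 128), and its ranges met only at the ends. Among 15 cadherins and protocadherins 6 were higher, led by Pcdh20 (1.57) and Cdh9 (1.49), and 6 lower, led by Pcdh10 (-0.82), with a median of 0.21. Of 25 forebrain transcription factors, Prox1, Zbtb20 (1.23), Neurod2 (1.09), Neurod1 (1.07) and 2 others were higher, and Tshz2 (-2.19), Meis2 (-1.71), Fezf2, Etv1, Nr2f2 and 2 others lower, with a median of -0.06. The Neurod1 call was lost with no replicate block (adjusted p 0.12, edgeR). Zbtb20, a zinc finger factor of hippocampal pyramidal and granule neurons, measured 1905 to 3791.5 CPM in dCA1 (median 2742) against 737 to 1671 CPM in vCA1 (median 1242), with no overlap. Of 5 neuronal activity genes tested, Bdnf was higher (1.38 ± 0.16, SE) and Nr4a1 (-0.97) and Egr1 (-0.64) were lower, with a median of -0.39.

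**Figure D3:**
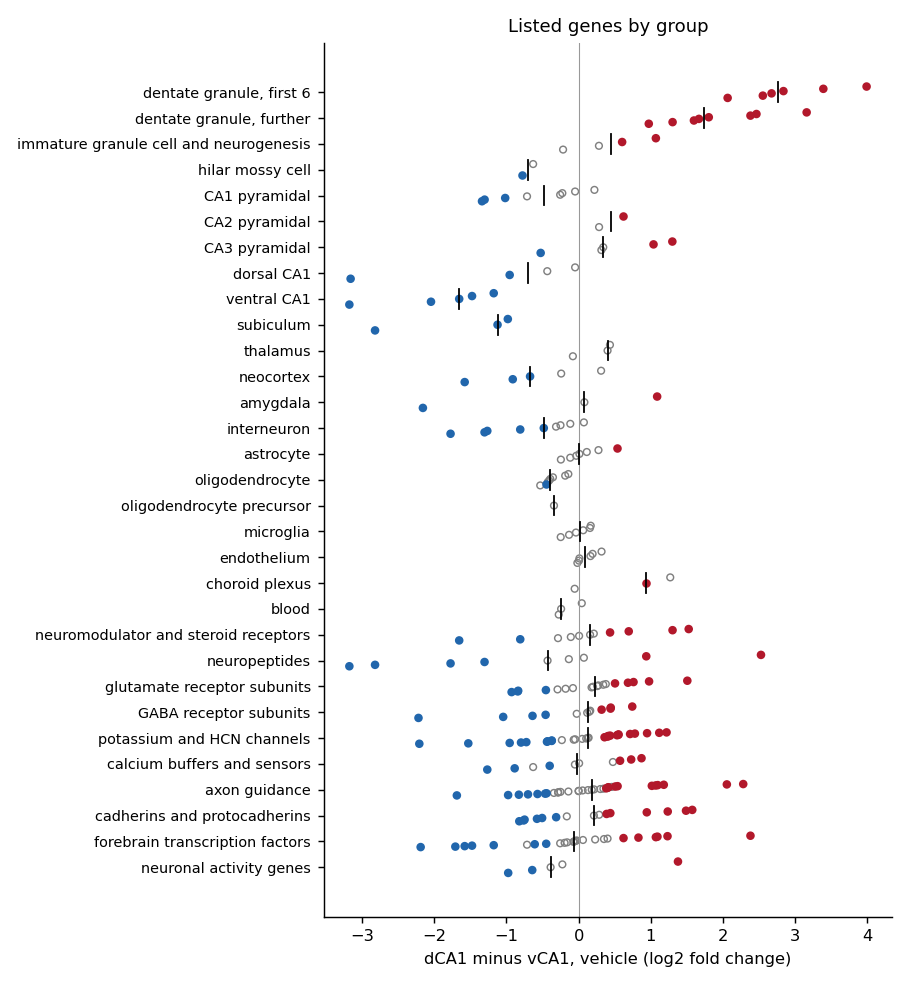
Log2 fold change of dCA1 over vCA1 in vehicle animals for every tested member of the gene lists, 1 row per list. Filled red and blue points passed an adjusted p of 0.05 as higher or lower, open points did not, and black bars mark each list's median; both dentate granule rows lie wholly to the right and the ventral CA1 row wholly to the left.

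The same contrast in the dexamethasone animals used no library of the vehicle comparison. There 1308 of 9061 genes (14.4%) passed, 654 in each direction (7.22%). Of the 1825 vehicle calls tested there, 957 (52.4%) passed in the same direction, 1 passed in the opposite direction and 1770 had the same sign. Among genes not called in vehicle animals, 302 of 6809 (4.44%) passed there. Those 957 were 73.2% of the dexamethasone calls. Across 8634 genes the 2 differences had a Pearson correlation of 0.83, a description over genes that are not independent. Grp (-3.03 ± 0.22 in dexamethasone animals, SE), Rxfp1 (-3.62), Ccn3 (-2.98), Gabra3 (-2.01), Itga7 (2.09) and Dcn (-1.43) passed in both arms. The dentate level in the dexamethasone arm was 5.85 ± 0.89 (SD, n = 13) in dCA1 and 4.20 ± 0.76 (SD, n = 15) in vCA1, a smaller gap than in vehicle animals. The punch difference itself depended on the arm for 8 of 9647 genes (0.0829%).

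**Figure D4:**
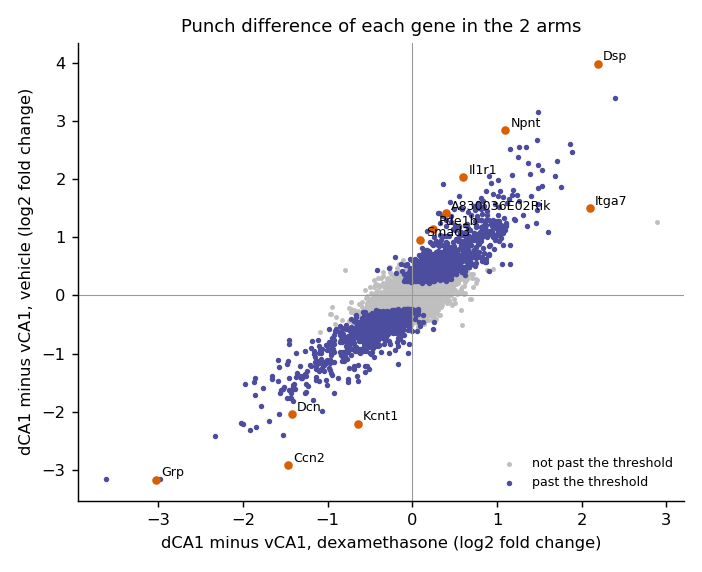
Log2 fold change of dCA1 over vCA1 for each gene in vehicle animals (vertical) against dexamethasone animals (horizontal); blue points passed the threshold in vehicle animals. The points follow a common diagonal (Pearson correlation 0.83 over 8634 genes), and the labelled genes include the 8 whose difference depended on the arm, among them Dsp at 3.99 and 2.19.

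How many of the 1841 differences track dentate tissue depends on the reference. The first reference, vDG against vCA1 in dexamethasone animals, separated few dentate granule genes. The dentate level in that arm was 4.24 in vDG and 4.20 in vCA1. Of 12 dentate granule genes tested in it, only Plk5 passed (0.87 ± 0.25, SE, adjusted p 0.032, edgeR), and Prox1 gave 0.35 ± 0.29 (SE) and Dsp -0.40 ± 0.39 (SE). In that reference 610 of 9218 genes passed (6.62%), with 2.96% higher and 3.66% lower in vDG. It marked 36 of 955 genes higher in dCA1 as higher in vDG, and 123 of 864 genes lower in dCA1 as higher in vCA1, or 159 in all, while over all 8640 genes tested in both the numbers were 213 and 333. The opposite classes held 33 of the 955 higher genes, as higher in vCA1, and 23 of the 864 lower genes, as higher in vDG. Using dDG in place of vDG, where 1728 of 8967 genes passed (19.3%; 9.35% higher and 9.93% lower in dDG), gave 546 of 971 and 514 of 856, or 1060 in all, with 1 gene of each direction in the opposite class. That second reference also differs from vCA1 in dorsal position, so position and field cannot be told apart in it.

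A reference that stays within regions was therefore added after the values had been seen. Over the 58 dexamethasone libraries of dCA1, vCA1, dDG and vDG, each gene was fitted on the dentate level with region as a factor, so that the slope describes libraries of 1 label that carry more or less dentate transcript. In this fit 1907 of 9798 genes passed (19.5%), 8.93% rising and 10.5% falling with the level. Leaving the 6 level genes aside, 943 of 1833 vehicle calls (51.4%) had a slope of the same sign past the threshold, 5 had one of the opposite sign and 885 (48.3%) had none. Among genes not called in vehicle animals, 782 of 6857 (11.4%) had a slope past the threshold. The share was like in both directions, with 497 of 967 higher calls rising with the dentate level and 446 of 866 lower calls falling with it. Among calls of at least 2-fold it was 251 of 286 (87.8%). These libraries came from animals that each gave up to 4 punches, and this fit had no animal block. With the block 959 genes passed (9.79%), and the slope had the same sign for 541 of the calls, and for 191 of the 286 of at least 2-fold (66.8%).

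Prox1 had a slope of 1.00 ± 0.07 (log2 per unit of dentate level, SE), C1ql2 1.17 and Sema5a 0.81, whereas Ccn3 had -0.63 ± 0.12 (SE) and Gabra3 -0.50. Multiplying each slope by the mean level gap of 2.99 gave a value that was a median of 0.80 of the observed difference over the calls (quartiles 0.42 and 1.16). It reached at least 0.5 of the difference for 1293 calls (70.5%) and was 0 or of the opposite sign for 141 (7.69%). These ratios used the slope without the animal block, and they were taken over the calls only, with no share over all genes. The gap they use was 1.94 with 10 further dentate genes in place of the 6. They do not measure the part of dentate tissue in the differences. Across 8690 genes the difference and the slope had a Pearson correlation of 0.72, given as a description. The slope count was 680 without the libraries of dexamethasone replicate 1, where 1169 genes passed in all, and 342 in vCA1 and vDG libraries alone, where 469 of 9218 genes passed in all. The part of dentate tissue in any single gene's difference was not tested in the vehicle animals themselves, because the dentate levels of the 2 labels do not overlap. With the level as a covariate no gene passed in edgeR, 459 had an unadjusted p under 0.05, and the median standard error rose from 0.13 to 0.53.

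**Figure D5:**
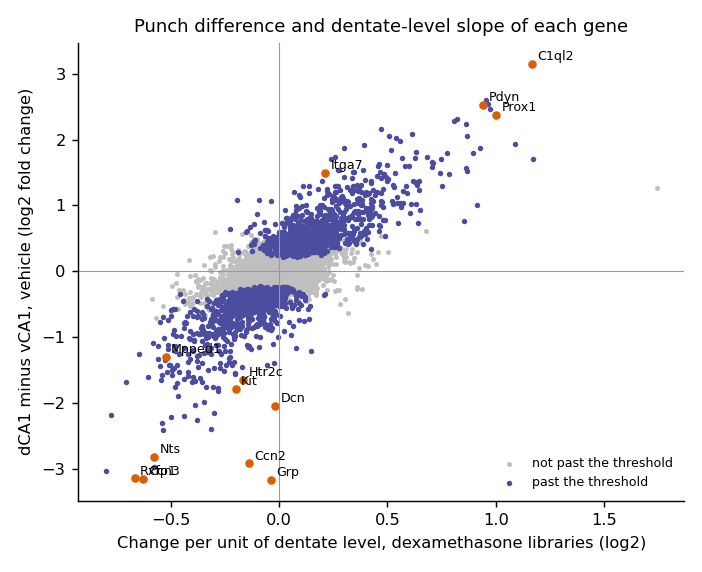
Log2 fold change of dCA1 over vCA1 in vehicle animals (vertical) against the change per unit of dentate level within regions of dexamethasone animals (horizontal), for 8690 genes without the 6 genes of the level. Blue points passed the threshold for the punch difference; C1ql2, Prox1 and Pdyn lie far right, and Grp, Ccn2, Dcn and Htr2c lie far down with slopes between -0.17 and -0.02.

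Of the 286 calls of at least 2-fold, 13 higher and 22 lower in dCA1 had no slope past the adjusted threshold, and with the animal as a block these were 30 and 64. In each direction the 10 largest differences among calls with at least 10 CPM and an unadjusted slope p above 0.05 are named, a choice made after the values were seen. In that narrower set 9 higher and 13 lower genes reached 2-fold. Itga7, an integrin that binds laminin (chr10:128933813-128958277, plus strand), measured 13.7 to 43.7 CPM in dCA1 (median 28.6) against 3.41 to 21.3 CPM in vCA1 (median 11.5). The ranges overlapped, but it was higher in dCA1 in 14 of 14 animals (log2 fold change 1.50 ± 0.18, SE, adjusted p 3.3e-07, edgeR), with a slope of 0.21 ± 0.11 (SE). Lingo3, a leucine-rich repeat membrane protein, separated the groups fully, at 21.9 to 54.9 CPM (median 35) against 7.71 to 21.6 CPM (median 14.6). Net1 (a guanine nucleotide exchange factor, 1.30), Abcc8 (the sulfonylurea receptor, 1.25), Onecut2 (a transcription factor, 1.18), Inf2 (a formin, 1.17) and Rasd2 (a small GTPase, 1.07) were further members. Aldh1a1 (1.08), which makes retinoic acid, and Cyp26b1 (1.09), which degrades it, were among the 10 highest, and A330008L17Rik (0.99) was the other.

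Among lower genes without a slope, 4 of the 10 with the largest deficit belong to the ventral CA1 list, namely Grp (slope -0.04 ± 0.12, SE), Dcn (-0.02 ± 0.11, SE), Htr2c (-0.17 ± 0.14, SE) and Nr2f2 (0.08 ± 0.07, SE). Ccn2, Vat1l (-1.46), Timp2 (a metalloproteinase inhibitor, -1.42), Nnat (the imprinted gene neuronatin, -1.40), Kcnj16 (an inward-rectifier potassium channel, -1.15) and Cyb561 (-1.14) were the others. Nnat measured 159 to 450 CPM in dCA1 (median 239.6) against 419 to 1109 CPM in vCA1 (median 720), lower in 14 of 14 animals. With the animal as a block the slope was -0.14 ± 0.14 (SE) for Grp and -0.22 ± 0.14 (SE) for Dcn. It was -0.30 ± 0.18 (SE) for Htr2c and 0.07 ± 0.09 (SE) for Nr2f2. In that fit 3 of the 20 genes named as without a slope had an unadjusted p under 0.05 (edgeR), namely Onecut2 (0.036), Aldh1a1 (0.019) and Cyp26b1. Of these only Cyp26b1 passed the adjusted threshold, and it was higher in dCA1 and fell with the level (-0.77 ± 0.19, SE, adjusted p 0.0043, edgeR). A slope that did not pass does not show that a gene is free of dentate signal.

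The second rule for named genes took those without a difference between vDG and vCA1 in dexamethasone animals at an unadjusted p of 0.05. It again returned Dsp, Prox1 and C1ql2. Of the genes it added, Il20rb (an interleukin receptor chain, 2.24) was higher in dCA1, and Cpne7 (a copine, -2.40), Npr3 (the natriuretic peptide clearance receptor, -1.99), Kit (a receptor tyrosine kinase, -1.79), Vip, Tox (an HMG-box factor, -1.76) and Meis2 were lower. Kit measured 11.7 to 43.8 CPM in dCA1 (median 21.8) against 34.0 to 141 CPM in vCA1 (median 87.3), lower in 14 of 14 animals. Il20rb had 1 vCA1 library at 134 CPM, above every dCA1 library, and was higher in dCA1 in 13 of 14 animals. That library was replicate 15, without which Il20rb was not tested.

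Dorsal and ventral dentate punches of the dexamethasone animals differed in many of the same genes. In dDG against vDG, 1572 of 9002 genes passed (17.5%). Of 1814 vehicle calls tested there, 784 (43.2%) passed in the same direction, which was 49.9% of the calls of that comparison, and 28 passed in the opposite one. Among genes not called in the vehicle comparison, 670 of 6768 (9.90%) passed there. The 784 included 262 of the 873 calls without a dentate-level slope, 141 of them higher and 121 lower. Itga7 (1.70), Lingo3 (2.16), Inf2 (1.20), Timp2 (-1.47), Nnat (-1.69), Nr2f2 (-1.87) and Kcnj16 (-1.52) passed in dDG against vDG. Htr2c (0.19 ± 0.33, SE), Vat1l (-0.04), Aldh1a1 (0.05), Cyp26b1 (0.29) and Cyb561 (-0.36) did not pass there. The dentate level also differed between these punches, at 5.95 ± 0.99 (SD, n = 15) in dDG and 4.24 ± 0.71 (SD, n = 15) in vDG, and its part in these differences was not tested.

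Set beside dDG in the same vehicle animals, dCA1 stood low for part of the ventral CA1 list. Htr2c differed by -1.67, Dcn by -1.33 and Etv1 by -0.78 (log2, dCA1 minus dDG), all past the threshold, and Vat1l by -1.65. Some markers of other tissues moved with them, in a comparison where 1.4% of all genes passed. All 3 choroid plexus genes tested were lower in dCA1 than in dDG (Ttr by -2.44, Enpp2 by -1.79 and Kl by -1.25), and Htr2c is known to be abundant in choroid plexus. The summed level of the 7 listed choroid genes ran from 116 to 3012 CPM in dCA1 (median 315) and from 201 to 15583 CPM in dDG (median 2036). Folr1 and Clic6 had a median of 0 CPM in dCA1, against 6.21 and 12.4 CPM in dDG. Of 3 thalamus genes tested, Zic1 (-1.20) and Tcf7l2 (-1.01) were also lower in dCA1, while Prkcd had the opposite sign (0.74) and did not pass. The 5 listed genes summed to 98.3 to 264 CPM in dCA1 and 122 to 875 CPM in dDG. The part of choroid plexus and thalamus in these differences was not tested. Of 5 CA3 genes tested, 3 were higher in dCA1 than in dDG, namely Bok by 1.07, Grik4 by 0.81 and Nectin3 by 0.65. Both comparisons use the dCA1 libraries, so these values are given side by side only.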

How the data were processed

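RNA of each punch was made into 3' end libraries with the QuantSeq forward kit and unique molecular identifiers, per the labels' protocols. The submitters' processing notes name cutadapt, UMI-tools 0.5.4, STAR 2.6.0a, featureCounts 1.6.4, DESeq2 1.30.1 and the build mm10, with no settings, and neither the use of strand nor whether the deposited counts are of molecules or of reads is given in the sources used here. The authors deposited raw counts of 27998 genes in 235 libraries, and variance-stabilised values on a log2 scale per region, which were read only for the libraries they list (1 vehicle dCA1 library, replicate 4, is not listed). Symbols came from GENCODE M21 for 27645 genes, and coordinates are those of the count table, read as mm10. Exons of Prox1, Tmem91, Hrh3, Tox, Itga7, Tshz2, Zbtb20, Neurod1, Kcnh7, Il16, Grm2, Gabra4, Gabra5, Plxna4, Pcdh10, Slc32a1 and A830036E02Rik overlap exons on the other strand, whose reads cannot be told apart if strand was ignored, and Neurod1 also overlaps Cerkl on its own strand.

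Genes were filtered by filterByExpr, scaled by TMM and tested with edgeR 4.0.16 quasi-likelihood fits (R 4.3.3) with the animal as a block, adjusted by Benjamini-Hochberg. The fit on the dentate level had region as its only other term, and the animal block was an alternative there. A standard error is the size of the log2 fold change over the root of its F statistic. The block comes from the labelled animal number. Same-animal deviations correlated by -0.07 to 0.27 (median 0.04), over 0.1 in 4 of 14 animals. Only 2 of the 14 dCA1 libraries correlated best with the vCA1 library of their animal, so the pairing rests on the labels. No 2 libraries of a group agreed within sampling noise (chi-square over genes at least 1.41 per degree of freedom). On simulated counts for dCA1 against vCA1 (8581 genes), 98 of 100 genes changed 2-fold and 75 of 100 changed 1.5-fold were found. Of all calls there 5.46% were false. Only those genes were changed, in random directions, a smaller share than differed in the data. Named genes are, per direction, the 12 largest changes past the threshold with at least 10 CPM and 1 sign in every animal, the 10 largest with p above 0.05 for vDG against vCA1 in dexamethasone animals, and list members; some of these genes are not reported here. The members and lists were chosen with earlier results of these data known. Alternatives were DESeq2 1.42.0, other scalings, filters, depths, covariates, thresholds and animals left out. Counts limit the precision, and no interval covers more than counting and replicate error.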

Additional observations from a re-analysis of the deposited data

Results flagged for a closer look

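For 8 of 9647 genes (0.0829%) the difference between dCA1 and vCA1 itself differed between vehicle and dexamethasone animals, by a test of the interaction over 27 animals with the animal as a block (edgeR, adjusted p under 0.05; 600 genes had an unadjusted p under 0.05). The vehicle minus dexamethasone difference was 1.78 ± 0.38 (log2, SE) for Dsp, which stood at 3.99 in vehicle and 2.19 in dexamethasone animals, and 1.72 for Npnt, a second dentate gene. It was 1.41 for Il1r1 (an interleukin receptor), 1.00 for A830036E02Rik, 0.88 for Pde1b (a calcium-dependent phosphodiesterase) and 0.84 for Smad3 (a transforming growth factor signal transducer). Smad3 measured medians of 141 and 72.7 CPM in dCA1 and vCA1 of vehicle animals and of 104 and 98.4 CPM in dexamethasone animals. The difference was -1.47 for Ccn2 and -1.58 for Kcnt1, both lower in dCA1 in each arm. In the dexamethasone animals the difference was 0.09 ± 0.11 (log2, SE) for Smad3 and 0.25 ± 0.15 (log2, SE) for Pde1b. All 8 differences were larger in vehicle animals, in which the gap in dentate level was also larger. The part of that gap was not tested.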

How the results depend on the processing

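The direction of the 1841 calls was kept in every alternative where they could be tested, except after adding the dentate level, where 391 changed sign and 0 genes passed. The number of genes past the threshold was 1936 with no replicate block, of which 1714 were among the 1841, and 1754 to 1873 with plate, RIN or upper-quartile scaling, 1577 in DESeq2 and 2240 with no filter on low counts. It moved to 1222 with at least 10 counts in every library and to 1093 after thinning, where fewer genes were tested, and to 1183 at an adjusted p under 0.01. Without 1 animal it ran from 1483 to 2036. The share higher in dCA1 stayed between 46.5% and 54.1%, and no scaling moved the median of all genes by 0.1. The dentate-class count of 159 became 1060 with dDG as reference and 99 at a minimum of 0.5 on the log2 scale. The count of 943 by slope became 1003 with 10 further genes in place of the 6, 541 with a replicate block and 342 in ventral punches. The dentate level gap was 1.94 with the 10 further genes in place of the 6 and 2.41 with a pseudocount of 5 CPM.

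Among 114 named genes, adding the dentate level turned the sign for Il20rb (-1.38), Net1 (-0.86), Abcc8 (-0.15), Neurod1 (-0.91), Tdo2 (-0.41), Plk5 (-0.57), Chrm1 (-0.49), Bdnf (-0.13), Gabra4 (-0.069), Gabra5 (-0.11), Htr2c (0.89), Nnat (0.18), Kcnj16 (0.50), Elavl2 (0.25), Gabrg1 (0.025), Mbp (0.49), Slc32a1 (0.076) and Wfs1 (0.11), none past the threshold. Nr3c1, never past the threshold, gave -0.027 with no replicate block, -0.018 with upper-quartile scaling, -0.00937 with no filter, -0.00175 with at least 10 counts, -0.043 with RIN and -0.00610 in DESeq2, and from -0.039 without replicate 3 to 0.028 without replicate 15. Wfs1 gave 0.078 after thinning, and from -0.17 without replicate 5 to 0.031 without replicate 7. Calls of Neurod1, Il16, Chrm1, Gabra5, Gfap, Mbp, Kl and Slc32a1 were lost in at least 1 other alternative. Depth limits genes near the filter, and the dentate level gap limits any separation of tissue from position.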
